A study of Mus musculus with 1187 samples.

Results

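The vascular basement membrane is the sheet of matrix on which brain endothelium sits, and its 10 core protein genes were read across single endothelial cells of the mouse brain. They were chosen by name: the collagen IV chains Col4a1 and Col4a2, the laminin chains Lama4, Lama5, Lamb1, Lamb2 and Lamc1, the nidogens Nid1 and Nid2, and Hspg2, which encodes perlecan. All 10 were found among the 46517 genes of the count table. Laminins are trimers of an alpha, a beta and a gamma chain that polymerise at the cell surface. Collagen IV, mostly trimers of alpha1 and alpha2 chains in vessels, forms a second network, and nidogens and the heparan sulfate proteoglycan perlecan link the networks. In brain vessels this matrix is made by endothelium, pericytes and astrocytes and is shared between them.

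The cells came from C57BL/6 mice that the series describes as 3 months old, carrying the retention-motif mutation of Pdgfb together with the reporters Cldn5-GFP and Cspg4-DsRed. The labels name 590 cells of heterozygous Pdgfb ret/+ mice, the controls, and 597 of homozygous Pdgfb ret/ret mice, which are short of pericytes. All cells were sorted as GFP positive and DsRed negative, so both genotypes share the reporters and the gate. Smart-seq2, which makes full-length cDNA in 1 well per cell without molecular identifiers, gave counts for 1187 cells on plates 521, 522, 523 and 524. The labels tie no cell to a plate, a well or an animal, so no cell could be given a genotype, and genotype and plate cannot be told apart. Plates 521 and 522 held 300 and 290 cells, in total the 590 of the ret/+ label. Plates 523 and 524 held 285 and 312 cells, in total the 597 of the ret/ret label. This match of sizes assigns no cell to a genotype, and what it means was not tested. All values describe 1 pooled sample in which cells are not replicates, with no test and no p-value, and values are given plate by plate.

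Cells had 100779 to 584112 gene-assigned reads (median 360947), and plates held 285 to 312 cells with median depths of 349606 to 373444 reads. Levels are CPM, the counts of a gene summed over a set of cells and scaled to the summed depth of those cells. Their exact 95% Poisson intervals, and the intervals beside the share of a gene in a pair, treat each read as independent. Reads are not independent molecules, so these intervals are too narrow even for counting error and leave out differences between cells. The exact binomial intervals beside shares of cells treat cells as independent draws and leave out differences between animals. The 7 endothelial markers, Cldn5 and Pecam1 among them, summed to 14524 CPM. Transcripts of other matrix-producing cells were low over all cells: 10 pericyte markers summed to 72.4 CPM, with Rgs5 highest at 32.4 CPM, 6 smooth muscle markers to 13.1 CPM, 6 fibroblast markers to 26.4 CPM and 5 astrocyte markers to 44.2 CPM.

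Col4a1 and Col4a2 lie head to head on chromosome 8 of GRCm38. Col4a1 spans 11198423 to 11312826 on the minus strand and Col4a2 spans 11312805 to 11449287 on the plus strand, so that the longest annotated transcripts overlap by 22 bases. The table of RefSeq promoters on GRCm38.p6 matched 7 of the 10 genes. The windows of 115 bases printed here stop at the base before the annotated start, which for the collagen window is that of Col4a2. They are shown because the collagen window lies between starts of both genes, because Lamb1 and Lamb2 stood on opposite sides in angiogenic-marker cells, and because Nid1 had the widest range over marker groups after Lamb1. Each reads 5′ to 3′ on the plus strand, and capitals mark matches on either strand. The GC box was searched as GGGCGG. The other motif searched was the CCAAT box, by those letters, and no matches overlap. The collagen window lies at chr8:11312690-11312804, between the Col4a2 start and the start of a shorter Col4a1 transcript. It is inside the longest Col4a1 transcript, which starts at 11312826. Lamb1's lies at chr12:31265119-31265233, Lamb2's at chr9:108479621-108479735 and Nid1's at chr13:13437436-13437550.
Col4a1 and Col4a2: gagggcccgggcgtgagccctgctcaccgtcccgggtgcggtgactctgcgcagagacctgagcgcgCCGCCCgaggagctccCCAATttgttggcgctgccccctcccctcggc
Lamb1: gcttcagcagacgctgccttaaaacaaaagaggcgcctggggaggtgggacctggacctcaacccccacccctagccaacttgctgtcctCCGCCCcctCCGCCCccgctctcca
Nid1: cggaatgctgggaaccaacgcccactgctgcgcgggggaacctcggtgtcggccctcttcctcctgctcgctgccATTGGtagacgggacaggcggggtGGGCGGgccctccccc
Lamb2: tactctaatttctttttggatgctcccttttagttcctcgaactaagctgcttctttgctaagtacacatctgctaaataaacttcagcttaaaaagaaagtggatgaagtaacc
The collagen window held 1 GC box and 1 CCAAT box, the Nid1 window 1 of each and the Lamb1 window 2 GC boxes, while neither set of letters occurs in the Lamb2 window. Among 32851 RefSeq promoter windows of the same length, 26.1% held a GC box and 20.7% a CCAAT box. Those windows stop before the RefSeq start, which need not be the annotated start used for the printed windows.

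Collagen IV was the most abundant component. Col4a1 stood at 501.7 CPM (95% counting interval 499.5 to 503.8) and Col4a2 at 480.3 CPM (478.2 to 482.4). Divided by exon length, Col4a2 had the highest level of the 10 genes with 72.6 CPM per kb, Col4a1 followed with 67.2 and Lamb2, the laminin beta2 chain, with 40.5. Nid2 at 18.3, Nid1 at 14.6, the gamma1 chain Lamc1 at 14.0, perlecan at 13.9, the alpha4 chain Lama4 at 13.8 and the alpha5 chain Lama5 at 13.1 CPM per kb lay close together, and their plate values overlapped. The beta1 chain Lamb1 was far lower, with 0.912 CPM per kb.

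The genes also differed in how many cells carried a read. After thinning every cell to 100000 reads, Col4a1 was read in 90.2% of cells (88.4% to 91.9%; 93.0% without thinning) and Col4a2 in 86.9% (84.8% to 88.7%; 89.2%). Lamb2 was read in 76.4% (81.6% without thinning) and Hspg2 in 75.7% (80.3%). Lama5 at 49.9% (54.3%), Lama4 at 45.9% (49.8%) and Lamc1 at 39.3% (43.5%) were read in fewer cells, as were Nid2 at 30.3% (33.7%) and Nid1 at 25.7% (30.2%). Lamb1 was read in 51 of 1187 cells, or 4.30% (3.22% to 5.61%; 8.34% without thinning), and 5 cells held 54.2% of its reads. The tenth of cells with the highest level of a gene held 29.8% of the summed cell CPM for Col4a1, 54.4% for Lama4 and 75.5% for Nid1. The median cell had a read of 5 of the 10 genes, 2 cells had none and 3 cells had all of them.

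Within a cell, the members went together weakly, and the collagen chains had the highest value by a small margin. Pearson's r of log2(CPM + 1) was taken within each plate over the 1187 cells in all and averaged. It was 0.15 for Col4a1 with Col4a2 (0.086 to 0.25 over plates), the highest of the 45 pairs. Col4a1 with Lamb2 followed at 0.14 (0.098 to 0.18), and the plate values of these pairs overlapped. With the number of genes read in a cell, r was 0.17 for Col4a1 and 0.14 for Col4a2. The median was 0.061 over member pairs and 0.032 over all pairs of 4908 genes; cells of a pair share library and depth, so these are descriptions. At fixed depth, 942 cells had a read of both collagen chains and 27 of neither. Of the cells with a Col4a1 read 88.0% had a Col4a2 read, close to the 86.9% of all cells. Lamb2 and Nid1 had the lowest value, -0.058. The genes most like each member by the same r also had low values. Cd93, a receptor of angiogenic endothelium, was nearest to Col4a1 (r = 0.17) and to Col4a2 (0.15), Ltbp4, a matrix protein that binds latent TGF-beta, to Lamb2 (0.23), the Notch ligand Jag2 to Lama5 (0.16) and the peptidase Dpp4 to Lama4 (0.14). The amino acid transporter Slc7a5, one of the capillary markers used here, was nearest to Nid1 (0.19). Lamb1 was nearest to Nid1 (0.12), Lamc1 to the chaperone Canx (0.13) and Hspg2 to Gm20659 (0.16).

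Plates differed in laminin and nidogen transcripts and hardly in collagen IV. The highest plate was at least 1.5-fold above the lowest for 7 of 10 members; among all 12428 genes at 5 CPM or more on a plate, 54.0% were as far apart, so the count is close to the background. Median folds between plates were 2.07 for the members and 1.55 for all genes. Col4a2 was 485.7, 489.8, 462.7 and 482.8 CPM on plates 521 to 524, a 1.06-fold spread, and Col4a1 was 463.7, 476.8, 519.1 and 545.4 CPM, a 1.18-fold spread. These values were nearly level.

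The alpha chains moved in opposite directions over plates. Lama4, which encodes the alpha4 chain typical of endothelium (chromosome 10, 38965515 to 39110188, plus strand), was 243.1, 256.4, 82.0 and 87.5 CPM on plates 521 to 524. Lama5, whose alpha5 chain is a second endothelial laminin chain (chromosome 2, 180176373 to 180225859, minus strand), was 82.5, 138.3, 201.1 and 177.5 CPM. Lama4 was thus high on plates 521 and 522, where Lama5 was lower. Corrected for exon length, Lama5 was 26.4% of the Lama4 and Lama5 total on plate 521 (counting interval 26.0% to 26.9%), 36.4% on plate 522 (35.9% to 36.9%), 72.2% on plate 523 (71.7% to 72.7%) and 68.3% on plate 524 (67.7% to 68.8%).

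The same order was seen in numbers of cells. Cells with a Lama4 read but no Lama5 read were 38.3%, 35.9%, 10.2% and 10.9% of the cells on plates 521 to 524 at fixed depth, and cells with Lama5 only were 12.3%, 15.5%, 43.2% and 39.7%. These classes follow how often each chain was read. Over all plates 48.3% of cells with a Lama4 read had a Lama5 read, close to the 49.9% of all cells. Lama4 was read in 67.0% of cells on plate 521 and 23.9% on plate 523 (73.0% and 29.1% without thinning). Pericyte markers also differed by plate, with sums of 25.0, 27.7, 147.4 and 89.3 CPM, as did venous markers (2844, 2227, 975 and 904 CPM) and capillary markers (5050, 6743, 9560 and 9140 CPM). Without the 346 cells in which markers of pericytes, smooth muscle, fibroblasts, astrocytes and microglia together reached 100 CPM, the Lama4 spread between plates was 3.35-fold and that of Lama5 2.48-fold, against 3.10 and 2.42 with them.

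The other members also differed between plates, Lamb2 in the same order as Lama5. Lamb2 (chromosome 9, 108479736 to 108490530, plus strand) was 183.9, 237.2, 287.6 and 278.2 CPM on plates 521 to 524. Lamc1, the gamma chain common to the main vascular laminins (chromosome 1, 153218922 to 153332786, minus strand), was 162.4, 114.4, 109.8 and 75.6 CPM. On plate 521 Lamb2 was lowest and Lamc1 highest.
Nid1 (chromosome 13, 13437551 to 13512269, plus strand) was 165.6, 84.3, 95.3 and 58.0 CPM, and Nid2 (chromosome 14, 19751265 to 19811787, plus strand) 130.4, 115.6, 64.5 and 69.4 CPM. Nid2 shares exonic bases with Rtraf on the opposite strand, listed under its older name 2700060E02Rik at 143.3 CPM, which was also its nearest gene by r (0.21); no source used here says whether counting used strand, so reads of the shared bases cannot be told apart. Hspg2 (chromosome 4, 137468769 to 137570630, plus strand) varied from 166.3 CPM on plate 523 to 224.3 CPM on plate 521. Lamb1 (chromosome 12, 31265234 to 31329644, plus strand) was 25.4, 6.97, 2.48 and 0.835 CPM, but 1 cell held 73.8% of its reads on plate 522 and 20.1% on plate 521. Without plate 521 the spreads of Lama5 and Lamb2 were 1.45-fold and 1.21-fold, under the 1.5-fold line, and without plate 524 that of Lamc1 was 1.47-fold.

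**Figure D1:**
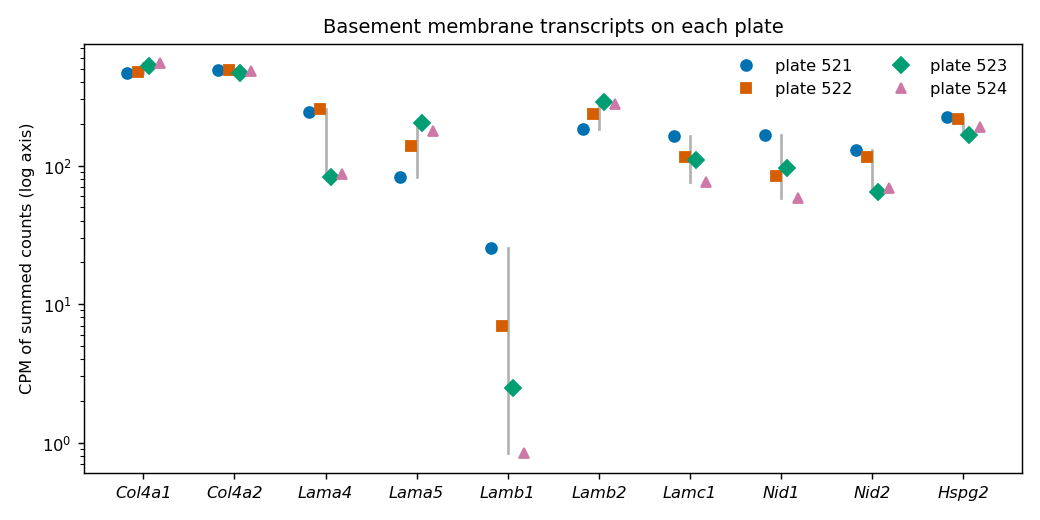
Level of each basement membrane gene on each plate, as CPM of summed counts on a log axis; each symbol is 1 plate and grey lines join the lowest and highest plate. Col4a2 lies between 462.7 and 489.8 CPM on all plates, while Lama4 ranges from 256.4 down to 82.0 CPM and Lama5 from 82.5 to 201.1 CPM, with opposite plates high.

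To compare kinds of vessel, cells were ranked within each plate by the mean log2(CPM + 1) of listed arterial, venous or angiogenic markers, none of them a member, and the upper 15% of each plate formed a range. Cells in more than 1 range (55) were left out, which gave 149 cells in the arterial range, 137 in the venous range, 138 in the angiogenic range and 708 remaining cells. A range is a part of a continuous score and not a cell type: 25, 24 and 72 cells lay within 0.1 of the threshold of the arterial, venous and angiogenic score. Because each plate gives the same share, the angiogenic range was weak on plates 523 and 524. There its angiogenic markers summed to 666 and 570 CPM, against 5060 and 3405 CPM on plates 521 and 522. This was less than the 866 CPM in the remaining cells of plate 521. In the remaining cells of plates 523 and 524 the sums were 45.2 and 7.41 CPM, so the range is high only against its own plate. Median cell sums of capillary markers were 4119, 5532, 7973 and 8436 CPM in the arterial, venous and angiogenic ranges and the remaining cells. Cells of the 3 ranges had more genes with a read (medians 4781, 4849 and 4711) than the remaining cells (4292), and the part of this in the results was not tested.

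With plates pooled, cells of the angiogenic range carried the most basement membrane transcripts, but on plate 524 their summed level was below that of the arterial range. The 10 members summed to 3059 CPM in the angiogenic range, 2004 in the arterial range, 1596 in the venous range and 1968 in the remaining cells, and the median log2 ratio of members to the remaining cells was 0.82 in the angiogenic range, against -0.02 over 11856 genes. At least 1.5-fold higher were 6 of 10 members (Col4a2, Lama4, Lamb1, Lamc1, Nid1 and Nid2), where 9.57% of all genes were so, and 1 member, Lamb2, was at least 1.5-fold lower, where 11.5% of all genes were. Without Lamb1, whose reads came from few cells, 5 of 9 were higher and the median was 0.79.

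Of the linker proteins, Nid1 stood out in angiogenic-range cells. It was 568.0, 257.5, 124.1 and 121.7 CPM in these cells on plates 521 to 524, against 125.2, 77.5, 114.8 and 55.0 CPM in the remaining cells of the same plates. Angiogenic-range cells were higher on every plate, but by little on plate 523, and the values of the sets overlapped. The pooled log2 ratio, with 1 CPM added to both sides, was 1.61. At fixed depth 49.3% of angiogenic-range cells had a Nid1 read (40.7% to 57.9%; 51.4% without thinning) and 25.3% of the remaining cells (22.1% to 28.7%; 29.5%). Nid2 was 370.2, 230.4, 39.4 and 96.5 CPM against 118.9, 120.4, 71.0 and 72.5 CPM, lower than in the remaining cells on plate 523; its pooled log2 ratio was 1.04, and 0.50 without plate 521, where it no longer reached 1.5-fold. Hspg2 had a pooled log2 ratio of 0.47 with plate values from -0.52 to 1.00.

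Among laminin chains, alpha4, beta1 and gamma1 were higher in the angiogenic range and alpha5 and beta2 lower. Lama4 was 382.4, 337.1, 178.4 and 163.1 CPM on plates 521 to 524 against 261.4, 233.7, 70.4 and 76.1 CPM in the remaining cells, a log2 ratio of 0.79 that held its direction on each plate (0.53 to 1.33). Lama5 was 49.2, 114.5, 179.5 and 159.9 CPM against 84.1, 142.1, 212.7 and 186.3 CPM, and its ratio was -0.37, lower on each plate (-0.76 to -0.22) but short of 1.5-fold. The Lama5 share of the alpha pair, per exon length, was therefore 32.0% in the angiogenic range (31.3% to 32.6%) and 51.4% in the remaining cells (51.0% to 51.7%). On single plates the share was 12.0%, 26.5%, 51.6% and 51.0% in the angiogenic range and 25.4%, 39.2%, 76.2% and 72.2% in the remaining cells, so it was lower in the angiogenic range on every plate while the plate order was kept.

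Lamc1 was 368.9, 266.6, 138.0 and 56.2 CPM in angiogenic-range cells on plates 521 to 524 against 135.9, 100.2, 102.9 and 85.2 CPM, higher on 3 plates and lower on plate 524, with a pooled log2 ratio of 1.03. Lamb2 was 85.1, 142.5, 226.0 and 207.1 CPM against 174.6, 249.0, 276.7 and 272.6 CPM, lower on every plate, with a ratio of -0.60, just past 1.5-fold; it was -0.48 without plate 521 and -0.54 without plate 522. Lamb1 was 81.2, 43.3, 9.45 and 2.68 CPM against 22.4, 1.56, 1.33 and 0.456 CPM (log2 ratio 2.36), from reads in 21 of 138 cells of which 5 held 76.3%. Lamb2 still made up 87.6% of the beta chain total per exon length in the angiogenic range (87.0% to 88.1%), against 98.4% in the remaining cells and 63.1% in the angiogenic range of plate 521.

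Both collagen IV chains were higher. Col4a2 was 980.4, 893.8, 672.6 and 539.0 CPM in angiogenic-range cells against 427.3, 420.0, 400.9 and 498.6 CPM in the remaining cells, with no overlap, and its log2 ratio was 0.84. Col4a1 was 878.6, 729.4, 547.5 and 588.8 CPM against 392.8, 454.5, 499.1 and 514.3 CPM, also without overlap; its ratio of 0.58 was just short of 1.5-fold. Microglial markers summed to 84.4 CPM in the angiogenic range, with Tmem119 and Aif1 at 0, and to 20.1 CPM in the remaining cells; astrocyte markers summed to 68.9 and 39.4 CPM, fibroblast markers to 4.68 and 27.2 CPM, and pericyte markers to 42.1 and 84.4 CPM. Without cells in which such markers reached 100 CPM, the log2 ratios were 1.49 for Nid1, 0.78 for Lama4, 1.25 for Lamc1, 0.81 for Col4a2 and 0.65 for Col4a1. Over 12 alternative settings, Nid1 stayed between 1.03 and 1.96, Lama4 between 0.69 and 1.14, Lamc1 between 0.69 and 1.25 and Col4a2 between 0.53 and 1.05, the lowest with the score taken as summed marker CPM.

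**Figure D2:**
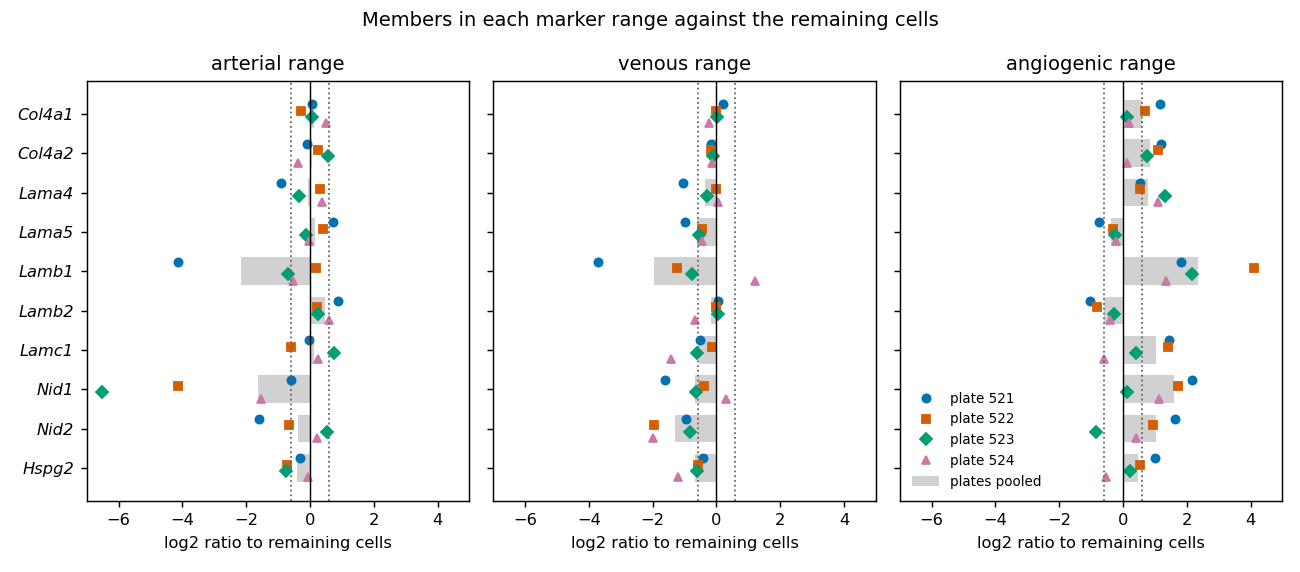
Log2 ratio of each member's CPM in the arterial, venous or angiogenic range to that in the remaining cells, with 1 CPM added to both sides; grey bars are plates pooled, symbols are single plates and dotted lines mark 1.5-fold. In the angiogenic range Nid1 reaches 1.61 and Lama4 0.79 pooled while Lamb2 is at -0.60; in the arterial range Nid1 is at -1.64, with plate values from -6.51 to -0.61.

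In the arterial range the members as a whole stood where the remaining cells did, with a median log2 ratio of 0.00 against -0.01 over 11949 genes, but Nid1 was lower. No member was at least 1.5-fold higher, where 12.5% of all genes were, and 2 of 10, Nid1 and Lamb1, were lower by that fold, where 12.2% of all genes were; without Lamb1 the count was 1 of 9. Nid1 was 81.8, 3.43, 0.270 and 18.2 CPM in arterial-range cells on plates 521 to 524 against 125.2, 77.5, 114.8 and 55.0 CPM in the remaining cells. It was lower on each plate, and only the plate 521 value overlapped with those of the remaining cells. The pooled log2 ratio was -1.64, with -3.24 to -0.95 over 12 alternatives. A read was found in 10.7% of arterial-range cells (6.26% to 16.9%; 15.4% without thinning) and 25.3% of the remaining cells. Because Nid2 was closer to the remaining cells (-0.37, with plate values from -1.60 to 0.55), it made up 77.1% of the nidogen total per exon length in the arterial range (76.0% to 78.1%), against 57.8% in the remaining cells, 46.5% in the venous range and 47.9% in the angiogenic range. The share was 38.7% on plate 521 and 86.1% to 99.8% on the other plates. Few cells carry much of it: for each gene, the 5 arterial-range cells with the most reads held 65.9% of the 1570 Nid1 reads and 35.6% of the Nid2 reads.

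Lamb2 was the member most raised in arterial-range cells, although not by 1.5-fold. It was 325.2, 290.3, 328.9 and 408.7 CPM on plates 521 to 524, above all 4 plate values of the remaining cells (174.6 to 276.7 CPM) and of the venous range (170.9 to 285.4 CPM). Its log2 ratio to the remaining cells was 0.47, with plate values from 0.22 to 0.89. Lamb2 was read in 93.3% of arterial-range cells at fixed depth (88.0% to 96.7%; 95.3% without thinning), 81.8% of venous-range cells (86.9%) and 72.3% of the remaining cells (78.7%). Lamb1 had 36 reads in 10 of the 149 arterial-range cells, and its log2 ratio of -2.15 turned to 1.64 with ranges of 20%, to 1.06 with 1 threshold over all plates and to 0.22 with the summed marker score, so its direction is not settled by these reads; it was -0.21 without plate 521.

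Venous-range cells had the lowest sum of members. Their median log2 ratio was -0.57, against 0.00 over 11888 genes, and 5 of 10 members were at least 1.5-fold lower (Nid2, Lamb1, Hspg2, Nid1 and Lama5), where 11.4% of all genes were, and 0 were higher, where 11.6% of all genes were; without Lamb1, 4 of 9 were lower. Nid2 was 60.3, 30.1, 39.1 and 17.5 CPM on plates 521 to 524 against 118.9, 120.4, 71.0 and 72.5 CPM, without overlap, and its log2 ratio was -1.30; with the summed marker score it was -0.31. Hspg2 was 156.9, 145.0, 117.5 and 91.6 CPM against 211.2, 218.5, 180.6 and 213.5 CPM, also without overlap. Its ratio of -0.67 was -0.52 without plate 524, -0.57 without cells with other-type markers and -0.46 with 1 threshold over all plates. Lama5 was 42.4, 103.4, 144.7 and 136.8 CPM against 84.1, 142.1, 212.7 and 186.3 CPM, lower on each plate, with a ratio of -0.60. That ratio was -0.50 without plate 521, -0.44 without cells with other-type markers and -0.03 with the summed marker score. Lamc1 at -0.55 was also lower on each plate. Nid1 at -0.66 was higher on plate 524, and -0.31 without plate 521. Lamb1 had 43 reads in 7 venous-range cells; its ratio of -1.96 was -0.10 without plate 521. Col4a1 was level, at 451.7, 454.6, 504.8 and 432.4 CPM and a ratio of -0.02. Pericyte markers summed to 30.0 CPM in the venous range and 84.4 CPM in the remaining cells, and fibroblast markers to 5.42 and 27.2 CPM. Smooth muscle markers summed to 4.03 and 14.3 CPM, microglial markers to 8.38 and 20.1 CPM and astrocyte markers to 47.5 and 39.4 CPM. The part of these differences in the ratios was not tested.

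Set against the venous range directly, 4 of the 9 members at 5 CPM or more in either range were at least 1.5-fold higher in the arterial range, where 17.8% of 12116 genes were, and 1 was lower, where 17.0% of genes were. Lamb1 was under 5 CPM in both ranges. Lama5 was at a log2 ratio of 0.75 and Lamb2 at 0.63, both higher on each plate (0.42 to 1.69 and 0.20 to 1.25). Without plate 521 they were 0.56 each, and Lamb2 was 0.43 without plate 524. Lama5 had a read in 63.8% of arterial-range and 43.8% of venous-range cells at fixed depth (67.8% and 51.8% without thinning). Nid2 at 0.93 and Lamc1 at 0.69 were each higher on 3 of 4 plates, and Lamc1 was 0.46 without plate 523 and 0.52 without plate 524. Nid1 at -0.98 was lower on 3 of 4 plates and at 1.01 on plate 521. The Nid1 ratio was -0.55 without plate 523, -0.47 with 20% ranges and -0.26 without cells with other-type markers. Without those cells Lamb2 was 0.55 and Lamc1 0.57, also short of 1.5-fold. With the summed marker score Lama5 was 0.28, Lamb2 0.34 and Nid2 -0.13, so that Lama5 and Lamb2 fell short of 1.5-fold and Nid2 turned.

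**Figure D3:**
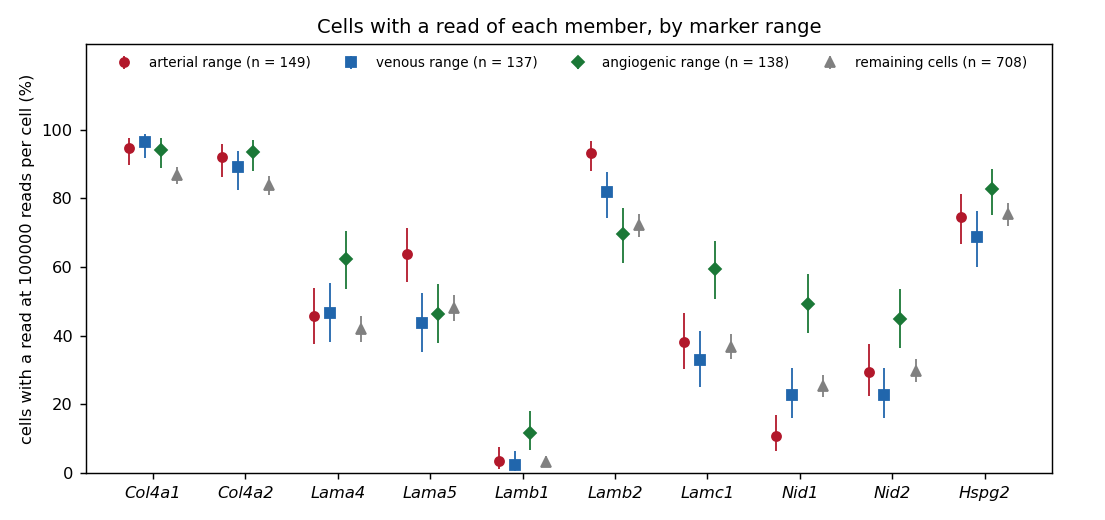
Percentage of cells with at least 1 read of each member after thinning every cell to 100000 reads, by marker range. Bars are exact 95% binomial intervals, which treat cells as independent draws. Nid1 was read in 49.3% of angiogenic-range and 10.7% of arterial-range cells, and Lamb2 in 93.3% of arterial-range cells.

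**Figure D4:**
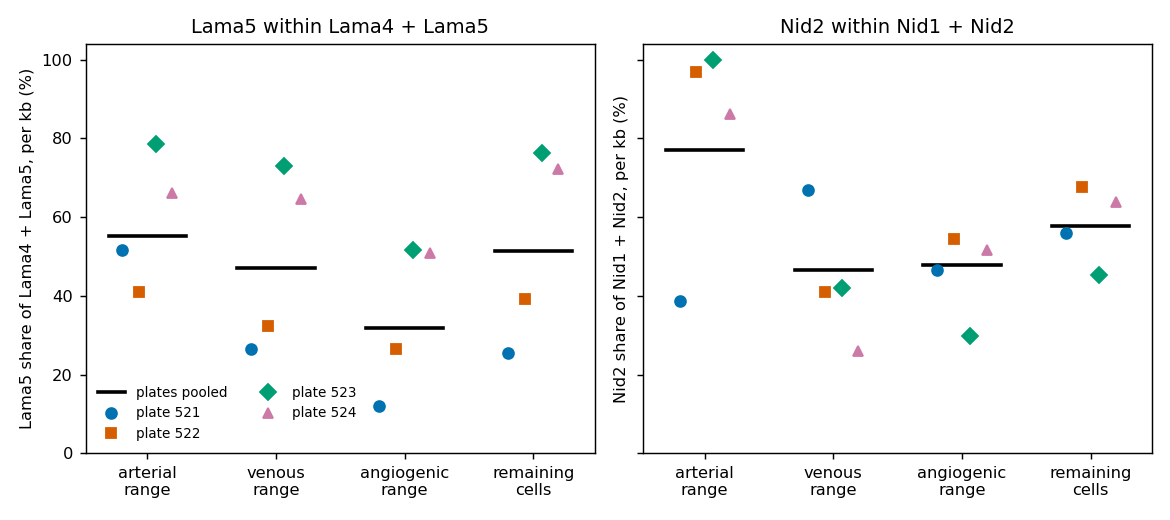
Share of Lama5 in the Lama4 and Lama5 total (left) and of Nid2 in the Nid1 and Nid2 total (right), both in percent of counts per exon length, by marker range; black lines are plates pooled and symbols are single plates. The Lama5 share is lowest in the angiogenic range on plates 521, 522, 523 and 524 (12.0%, 26.5%, 51.6% and 51.0%), and the Nid2 share is highest in the arterial range when plates are pooled (77.1%).

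Other genes of the basement membrane and of its receptors, enzymes and proteases were taken from lists. Among all genes at 5 CPM or more, 12.5% were at least 1.5-fold higher and 12.2% lower in the arterial range, 11.6% and 11.4% in the venous range and 9.57% and 11.5% in the angiogenic range, against which the counts of these short lists are to be read. Of 25 further basement membrane genes, 14 reached 5 CPM in the arterial range or the remaining cells, of which 6 were at least 1.5-fold higher and 4 lower in the arterial range. The highest of those with 1 direction on every plate were Sparc, a collagen-binding matrix protein (1293 against 2015 CPM, log2 ratio -0.64), the hemicentin Hmcn1 (96.3 against 400.3 CPM, -2.04) and the CD93 ligand Mmrn2 (381.9 against 185.2 CPM, 1.04). Also higher in the arterial range were Col18a1, the precursor of endostatin (214.8 against 8.57 CPM, 4.49), the fibulin Fbln2 (208.7 against 11.7 CPM, 4.04) and the integrin ligand Npnt (111.8 against 17.3 CPM, 2.63). Laminin chains outside the main set were low, but Lama3 at 11.1 and Lamc3 at 11.5 CPM over all cells exceeded the member Lamb1 at 9.04 CPM. Lama3 reached 37.7 CPM in the arterial range against 3.32 CPM in the remaining cells (3.16). It was 17.0 CPM in the venous range (2.06, higher on 3 of 4 plates). Lamc3 was 31.9 CPM in the arterial range against 8.56 CPM (1.78), and Lama1 was 26.3 CPM in the venous range against 2.77 CPM (2.86). Col4a3, of the collagen chains typical of kidney, was 26.7 CPM in the remaining cells, 1.52 in the arterial range (-3.45) and 4.47 in the venous range (-2.34); in the angiogenic range it was 55.3 CPM, higher on 3 of 4 plates. In the angiogenic range Col18a1 was 1.95 CPM (-1.70), and 2 of 13 such genes were higher and 3 lower, and in the venous range 3 of 15 were higher and 4 lower.

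Of the enzymes that process collagen IV, 4 of 16 at 5 CPM or more were at least 1.5-fold higher in the angiogenic range and 1 lower, with a median log2 ratio of 0.30. Of those past 1.5-fold, the lysyl hydroxylase Plod2 was the one with 1 direction on every plate (9.16 against 16.0 CPM, -0.74). In the arterial range 2 of 15 were higher and 2 lower, close to the share of all genes, among them the lysyl hydroxylase Plod1 (97.6 against 197.6 CPM, -1.01), the prolyl hydroxylase subunit P4ha2 (52.9 against 22.5 CPM, 1.20) and peroxidasin, Pxdn, which crosslinks collagen IV (3.46 against 14.4 CPM, -1.79). In the venous range 3 of 15 were higher and 0 lower.

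Among 13 matrix receptors, the laminin-binding integrin subunit Itga6 was lower in the arterial range (299.7 against 484.9 CPM, log2 ratio -0.69), where 3 of 11 measured receptors were higher and 1 lower, and Itgb4, its partner in hemidesmosomes, was higher (24.3 against 1.94 CPM, 3.11). In the venous range 3 of 8 were higher and 0 lower, with Itga3 at 187.8 against 98.4 CPM (0.93). In the angiogenic range 1 of 9 was higher and 0 lower, the first close to the share of all genes. Of the proteases and inhibitors, the metalloproteinase inhibitor Timp3 was 1415 CPM in the arterial range, 460.1 in the venous range and 731.8 in the remaining cells (log2 ratios 0.95 and -0.67). The protease Adamts1 was 262.5 CPM in the angiogenic range against 149.3 CPM (0.81). It was nearly as high in the arterial range, at 259.3 CPM (0.79), though not on every plate. Higher and lower by 1.5-fold were 5 and 2 of 9 measured in the arterial range, 1 and 2 of 8 in the venous range and 1 and 2 of 7 in the angiogenic range, where single genes make up much of such counts.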

How the data were processed

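Counts were deposited by the authors as whole numbers of reads per gene and cell, with no normalization. The submitters' processing notes name the builds GRCm38 and mm10 and the tools featureCounts, SAMtools 0.1.18, TopHat2 2.1.1 and Subread 1.4.6-p5, without their roles; no source used here gives the annotation or strand setting. No column was left unused (0), and no doublet caller was run. No cell was removed: none had under 100000 reads. Counts were summed over cells and scaled to CPM with numpy 2.4.6 and scipy 1.17.1. Log2 ratios add 1 CPM, and a member is called at 1.5-fold. The background holds genes at 5 CPM or more on either side, without the zone markers. Exon lengths and gene positions come from the union of GENCODE M21 exons on GRCm38. The computation of ratios was checked on simulated counts, which is no test of the results. All 10 members are named. For likeness, the nearest genes by r among those at 50 CPM or more and read in at least 20% of cells were taken. From the lists up to 3 genes with 1 direction on all plates were taken by level. Others past 1.5-fold in 1 direction on all plates were named after their values were seen. So were Col4a3 in the angiogenic range, Adamts1 in the arterial range and Lama3 in the venous range. The members, lists and markers were chosen with earlier results of these data known. Alternatives were other range widths (10% and 20%), 1 threshold over plates, summed marker CPM, median-of-ratios scaling, mean cell CPM, cells without other-type markers, the capillary-marker range as reference, each plate left out, and no CPM minimum for the lists.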

Additional observations from a re-analysis of the deposited data

Results flagged for a closer look

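In 50 sets of 4 plate values, a single plate stood apart by Dixon's criterion in 2, about what chance gives at 1 in 20. The Lamb2 log2 ratio of venous-range to remaining cells was -0.67 on plate 524 and -0.02 to 0.05 on the other plates. The Lama5 log2 ratio of angiogenic-range to remaining cells was -0.76 on plate 521 and -0.31 to -0.22 on the others.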

How the results depend on the processing

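No paired analysis was possible because no column could be given a sample, and the replicate numbers were assigned in accession order. Of 19 member ratios past 1.5-fold, 5 stayed past it under every alternative and 17 kept their direction; the causes of the changes were not tested. Lamb1 turned in arterial against remaining cells (1.64, 1.06 and 0.22 with 20% ranges, 1 threshold and summed markers), and Nid2 in arterial against venous cells (-0.13 with summed markers). Members higher in the arterial range (0) became 1 with 10% and 20% ranges and 1 threshold. Members lower there (2) became 4 with 10% ranges and the capillary reference, and 1 with 20% ranges, 1 threshold, summed markers or without plate 521. Members lower in the venous range (5) became 3 with 20% ranges, 1 threshold, without other-type cells or without plate 521, and 1 with summed markers. Members lower in the angiogenic range (1) became 0 with 10% ranges, median-of-ratios scaling, the capillary reference or without plate 521 or 522, and 2 with 20% ranges and 1 threshold. In arterial against venous cells, members higher (4) became 2 with summed markers, without other-type cells, or without plate 521 or 524; members lower (1) became 0 with 20% ranges, without other-type cells or plate 523, and 2 without plate 522, Lamb1 included. With 1 threshold over all plates the angiogenic range held 78, 44, 3 and 1 cells of plates 521 to 524, so plate enters that setting. Members apart between plates (7) numbered 5 to 8. Without the CPM minimum, rare genes entered the lists: of the 25 further basement membrane genes 11, 9 and 9 were then lower in the arterial, venous and angiogenic range, against 4, 4 and 3. Lamb1 rests on reads of few cells; without it, a choice made after seeing the data, members lower in the arterial range numbered 1 and the other counts moved by at most 1.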
